A study of Mus musculus with 12 samples.

Results

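The ATF4 amino acid and stress program was followed as 37 genes in peritoneal macrophages of mice, out of 34948 rows with a gene symbol. They were chosen by name as targets of the transcription factor ATF4, or as factors that work beside it: 6 transcription factors, 7 stress effectors and feedback genes, 5 enzymes of serine and one-carbon metabolism, 3 of asparagine and proline synthesis, 4 amino acid transporters and 12 tRNA synthetases. Of these, 35 were found by symbol and 2 under a current synonym (Mars as Mars1, Wars as Wars1). All 37 passed the filter on low counts that left 16546 genes to test.

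The macrophages came from mice aged 8 weeks and given as male, 3 days after 3% Brewer thioglycolate had been injected into the peritoneum, an irritant that draws monocytes into the cavity. Cells labelled Ern1fl/fl (called WT) carry floxed alleles of Ern1, which encodes the endoplasmic reticulum stress sensor IRE1α, and cells labelled Mac-Ern1KO (called KO) are named as the macrophage knockout of it. The Cre driver is not named in the labels. In the R300 groups the cells spent 2 h with platelets coated by R300, an antibody to the platelet receptor CD42, and in the blank groups the treatment is given as Con, with no word on platelets or on time in culture. In a comparison of R300 with blank, the antibody, the platelets and the hours of culture thus cannot be told apart. Each of the 4 groups held 3 libraries of poly(A) RNA, sequenced in bulk to 21765600 to 44273700 counts per library (to 6 digits).

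ATF4 is translated when a kinase phosphorylates the initiation factor eIF2α, which can follow endoplasmic reticulum stress (through PERK, an arm parallel to IRE1α), amino acid shortage, heme shortage or double-stranded RNA. It binds composite C/EBP-ATF elements and turns on amino acid import, amino acid synthesis, tRNA charging and, under lasting stress, the factor CHOP (Ddit3) with its feedback and death genes. Macrophages that engulf other cells take in protein to degrade, which is one way in which engulfment meets amino acid supply.

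Libraries of 1 group were not all alike. Although the mice are given as male, 8 libraries held 143 to 590 CPM (counts scaled to a common library size, as edgeR gives them) of Xist, which is transcribed in female cells, and 4 libraries, 1 in each group, held at most 0.0742 CPM. These 4 are the third blank library of either genotype, WT R300 2 and KO R300 3. Y-linked transcripts (Ddx3y, Uty, Kdm5d and Eif2s3y summed) were 205 to 224 CPM in these 4. They were 42.6 to 162 CPM in the 8 libraries with Xist, which thus held transcripts of both kinds. WT R300 1 and 3, and KO R300 1 and 2, were nearly alike, with a median chi-square per gene of 1.37 and 1.53. Other within-group pairs gave 6.15 to 10.3, and sampling alone gives 0.455. The near-alike libraries were kept as separate libraries, so n = 3 counts libraries and p-values may be too small. Macrophage markers summed to 11000 to 19140 CPM in every library, B cell markers to at most 103 CPM and platelet markers to 51.6 to 124 CPM. Ern1 itself was 113, 117 and 94.1 CPM in WT blank, 204, 138 and 205 in WT R300, 150, 155 and 116 in KO blank, and 235, 225 and 174 in KO R300, so its count did not separate the labelled genotypes; counts per gene do not show whether floxed exons were lost. Genotypes are therefore those of the labels.

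With R300, most of the program lay lower and 1 member rose. Over both genotypes, 27 of the 37 members had lower fitted levels than in blank and 10 had higher ones, with a median log2 fold change of -0.33 against -0.00 for all genes. The stress genes that fell were Atf3, to 0.506 of its blank level, Nupr1, to 0.498, and Chac1, to 0.266. The member that rose was Ddit4, to 4.25-fold. These 4 calls (edgeR, Benjamini-Hochberg adjusted p under 0.05) stand beside 3.64% of all genes called, 1.21% lower and 2.43% higher. At an unadjusted p under 0.05, 19 members were lower and 2 higher, where 7.64% of all genes were lower. Over 22 alternative fits, the calls of Atf3 and Ddit4 held in all, that of Chac1 in 8 and that of Nupr1 in 9. Without both blank libraries numbered 2 the members' median was -0.18, with 29 of the 37 lower. In bulk RNA, fewer cells of a type and less RNA per cell cannot be told apart.

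**Figure D1:**
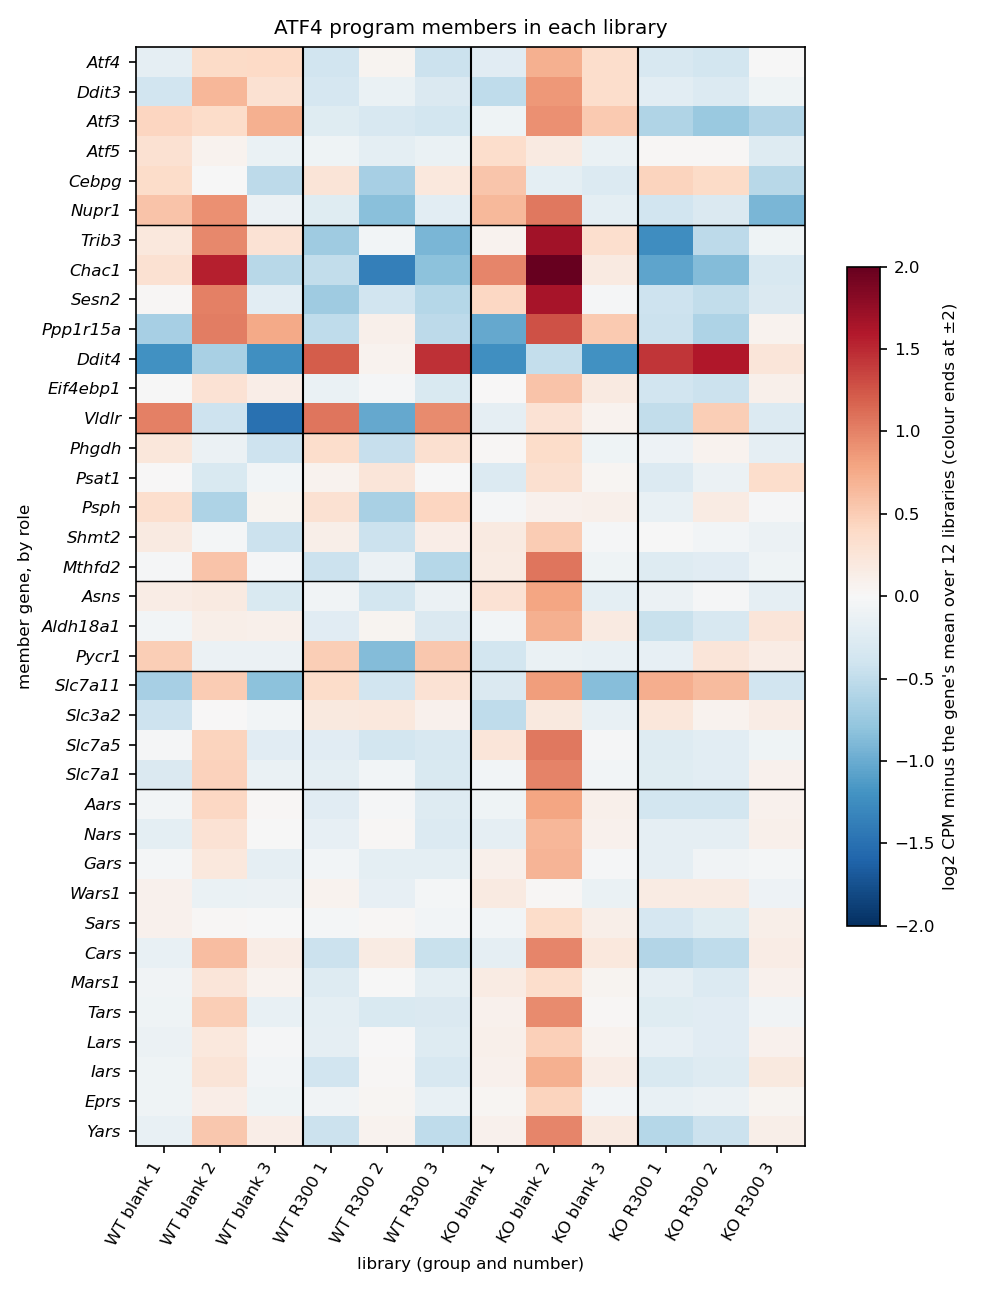
Level of each of the 37 members (rows, grouped by role) in each of the 12 libraries (columns), as log2 CPM minus the gene's mean over the libraries. KO blank 2 is the highest library for 28 of the 37 genes, and Ddit4 and Slc3a2 are the 2 rows above their mean in all 6 R300 libraries.

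The promoters of the members were read for the element that ATF4 binds. RefSeq promoters (GRCm38.p6, from 250 bases before to 50 after a start site) were found for 31 members, in 35 stretches. The core of the composite element, TGATGNAA on either strand (TTNCATCA on the other), was present in 3.97% of 32851 promoters and in 13 of the 35 (37.1%), which belong to 13 members: Aars, Asns, Atf3, Chac1, Gars, Iars, Nupr1, Pycr1, Slc7a11, Tars, Trib3, Vldlr and Yars. The cyclic AMP response element TGACGTCA was in 1.79% of all promoters and, among members, only in that of Ppp1r15a. No promoter of a member held both motifs. The stretches below are from genes on which the results turn, 5′ to 3′ on the gene's strand, with the core in capitals. Whole stretches end before the first annotated exon base, and of sites in or next to transcribed sequence only 30 bases are given.
Atf3 (chr1:191183341-191183583, minus strand, within the span of Atf3 and intronic there): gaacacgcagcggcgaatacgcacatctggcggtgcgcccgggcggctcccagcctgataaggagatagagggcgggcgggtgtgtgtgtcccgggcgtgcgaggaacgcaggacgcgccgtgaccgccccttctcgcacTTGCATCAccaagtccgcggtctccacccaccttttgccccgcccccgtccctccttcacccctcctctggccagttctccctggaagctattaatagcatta
Chac1 (chr2:119350992-119351228, plus strand, upstream of the gene): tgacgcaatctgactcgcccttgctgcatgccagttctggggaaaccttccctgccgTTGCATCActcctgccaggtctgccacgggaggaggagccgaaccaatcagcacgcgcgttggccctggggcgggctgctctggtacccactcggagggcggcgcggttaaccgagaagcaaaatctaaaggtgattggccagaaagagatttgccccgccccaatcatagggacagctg
Nupr1 (chr7:126625562-126625591, minus strand, within an annotated exon): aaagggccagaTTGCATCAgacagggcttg
Trib3 (chr2:152344028-152344057, minus strand, 5 of its bases exonic): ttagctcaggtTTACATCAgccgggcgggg
Asns (chr6:7693214-7693243, minus strand, within an annotated exon): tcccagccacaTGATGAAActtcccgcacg
Slc7a11 (chr3:50443615-50443863, minus strand, upstream of the gene): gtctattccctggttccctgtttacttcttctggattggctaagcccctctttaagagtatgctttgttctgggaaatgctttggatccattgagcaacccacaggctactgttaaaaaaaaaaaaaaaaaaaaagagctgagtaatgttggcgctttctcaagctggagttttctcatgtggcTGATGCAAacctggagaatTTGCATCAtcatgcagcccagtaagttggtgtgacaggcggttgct
Ddit4 (chr10:59951835-59952020, minus strand, upstream of the gene): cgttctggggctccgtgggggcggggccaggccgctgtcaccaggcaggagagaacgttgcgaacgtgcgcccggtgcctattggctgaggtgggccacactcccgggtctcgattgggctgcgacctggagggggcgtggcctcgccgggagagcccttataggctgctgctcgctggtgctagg

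The core began 110 bases before the start site in Atf3 and in Nupr1, 193 before it in Chac1 and 23 before it in Asns. Slc7a11 held it 2 times, on opposite strands, 66 and 47 bases before the start. In Ddit4 neither motif was found in the 300 bases. With R300, over both genotypes, 10 of the 13 members with a core were lower (median log2 -0.41) and 12 of the 18 without one (median log2 -0.20), a difference that was not tested. A match of letters is a description of the window and not a binding site.

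Per kilobase of annotated exon, Atf4 was among the most abundant members in WT blank (145 CPM per kb), with only Atf3 (196) and Slc3a2 (151) above it, and Pycr1 was last (0.345). Atf4 lies on chromosome 15 at 80255184 to 80257541. It was 258, 382 and 387 CPM in WT blank, 225, 304 and 216 in WT R300, 250, 475 and 374 in KO blank, and 232, 227 and 289 in KO R300. The 4 near-alike R300 libraries lay below all 6 blanks, and the 2 R300 libraries without Xist lay among them. Its log2 fold change was -0.51 (SE 0.17, adjusted p = 0.152), with -0.46 in WT and -0.56 in KO. Counts of mRNA do not show how much ATF4 protein was made, since its control is in large part at translation.

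Atf3, an ATF family factor induced in many kinds of stress and a repressor of inflammatory genes in macrophages, had the lowest adjusted p of the members that fell. It lies on chromosome 1 at 191170296 to 191218039. Its levels were 399, 383 and 485 CPM in WT blank and 251, 237 and 229 in WT R300. They were 279, 557 and 428 CPM in KO blank and 196, 177 and 198 in KO R300. All 6 R300 libraries lay below all 6 blanks, a pattern that in this direction was seen in 1.44% of all genes and in 3 further members (Nupr1, Trib3 and Sesn2). The log2 fold change over both genotypes was -0.98 (SE 0.14, adjusted p = 0.00358). It was -0.82 in WT (SE 0.20, adjusted p = 0.139) and -1.15 in KO (SE 0.20, adjusted p = 0.0289). The call over both genotypes held in all 22 alternatives, with an adjusted p of at most 0.0481, whereas the call in KO held in 11 of 23. Leaving out a single library ended the KO call for each KO R300 library, for KO blank 2 and 3 and for WT R300 1 and 3 (adjusted p up to 0.148). Within the libraries without Xist, 1 a group, Atf3 was lower by 1.03 log2 units in WT and by 1.11 in KO. The fall was smaller within blank 1 against the near-alike pairs (log2 -0.74 in WT and -0.58 in KO). Without both blank libraries numbered 2 the fold of Atf3 over both genotypes was 0.540 (adjusted p = 0.00650).

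Nupr1, a small chromatin protein of stressed cells, was 44.9, 56.8 and 27.9 CPM in WT blank and 25.6, 16.96 and 26.1 in WT R300. In KO it was 47.7, 62.7 and 26.5 CPM in blank and 23.3, 24.8 and 16.0 in R300. The library without Xist was the lowest of its group in all 4 groups, and within those libraries R300 was lower by 0.71 log2 units in WT and by 0.73 in KO. Over both genotypes Nupr1 fell (log2 -1.01, SE 0.24, adjusted p = 0.0418). With a term that set apart the libraries lacking Xist, the log2 fold change was -0.97 and the SE 0.10, with an adjusted p of 0.000219 by edgeR.

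Of the other 4 factors none passed. Ddit3, which encodes CHOP, was 15.7, 32.7 and 25.4 CPM in WT blank, 16.3, 18.8 and 16.8 in WT R300, 14.5, 37.6 and 26.2 in KO blank, and 17.8, 16.9 and 19.4 in KO R300. Blank libraries spread over more than the whole range of R300 and enclosed it. Its log2 fold change was -0.52 (SE 0.22, adjusted p = 0.282). Of its exonic bases, 4.73% overlap genes of the opposite strand. Reads counted without regard to strand could not tell these apart, and the strand setting is not given. Atf5 (log2 -0.22, SE 0.10, adjusted p = 0.336) makes a mitochondrial stress factor. Cebpg encodes the C/EBP partner of ATF4 and lay between 46.3 and 108 CPM, lowest in the R300 libraries without Xist.

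**Figure D2:**
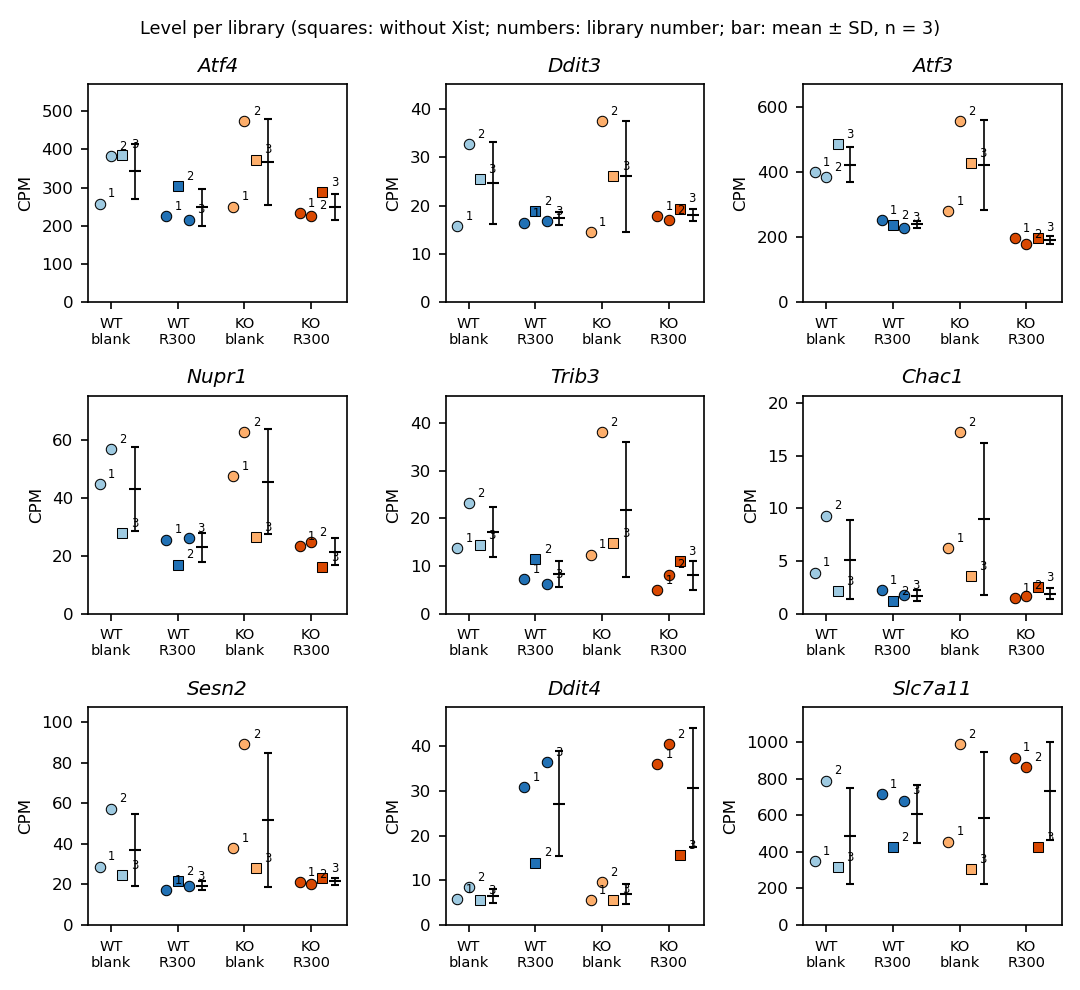
CPM of 9 members in each library (points, numbered 1 to 3; squares are the 4 libraries without Xist) with the group mean and SD (n = 3) beside them, axes from 0. Atf3, Nupr1, Trib3 and Sesn2 show no overlap between the 6 blank and 6 R300 libraries, Ddit4 shows none in the other direction, and KO blank 2 is far above the rest of its group for Chac1 (17.2 CPM) and Sesn2 (89.3 CPM).

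Among the stress effectors, Chac1, which degrades glutathione, had the lowest fold. It was 3.89, 9.32 and 2.11 CPM in WT blank and 2.20, 1.18 and 1.76 in WT R300. It was 6.25, 17.2 and 3.55 CPM in KO blank and 1.48, 1.70 and 2.51 in KO R300, at 34 to 79 counts per R300 library. Chac1 groups did not overlap in KO, and in WT 1 R300 library (2.20 CPM) was above the lowest blank. Over both genotypes Chac1 fell (log2 -1.91, SE 0.45, adjusted p = 0.0404). Its log2 fold change was -1.58 in WT and -2.25 in KO (adjusted p = 0.487 and 0.191). Without both blank libraries numbered 2 the fold was 0.472 in place of 0.266, and the call was lost (adjusted p = 0.0852).

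The calls of Chac1 and Nupr1 over both genotypes depended on single libraries. They held without WT blank 3 or KO blank 3 and were lost without any 1 of the other 10 libraries, with adjusted p up to 0.118 and 0.0971. Over all 22 alternatives they held in 8 and 9.

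Trib3, a pseudokinase that binds ATF4 and dampens it, was 13.8, 23.2 and 14.5 CPM in WT blank and 7.17, 11.4 and 6.24 in WT R300. It was 12.4, 38.2 and 14.9 CPM in KO blank and 4.97, 8.18 and 11.1 in KO R300. No R300 library reached the lowest blank. Its log2 fold change of -1.24 (SE 0.32, adjusted p = 0.0593) missed the threshold, and it passed in 9 of 22 alternatives. Sesn2, a leucine sensor that restrains mTORC1, was 24.5 to 57.3 CPM in WT blank, 17.2 to 21.8 in WT R300, 28.0 to 89.3 in KO blank and 20.1 to 23.2 in KO R300. Its log2 fold change was -1.10 (SE 0.29, adjusted p = 0.0647), and without both blank libraries numbered 2 it was -0.54 with a smaller SE of 0.11 (adjusted p = 0.0368). The 6 R300 libraries of Sesn2 were close together, and the blanks of each genotype were spread by the library numbered 2.

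Ppp1r15a (GADD34), the phosphatase subunit that removes phosphate from eIF2α, did not pass. In blank it ran from 48.8 to 240 CPM and in R300 from 64.4 to 107 CPM. It was lower with R300 within the libraries without Xist (log2 -0.65 in WT and -0.45 in KO) and higher within the others when blank 1 was set against the near-alike R300 pair (log2 0.14 and 0.50). Eif4ebp1, the repressor of cap-dependent translation, had a log2 fold change of -0.39 (SE 0.12, adjusted p = 0.130). Vldlr, a lipoprotein receptor, ran from 1.41 to 8.66 CPM with no common direction.

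Ddit4 (REDD1), an inhibitor of mTORC1 that is a target of ATF4 and also of hypoxia and glucocorticoid signals, went the other way. It lies on chromosome 10 at 59949669 to 59951834. In blank it was 5.71, 8.41 and 5.64 CPM in WT and 5.62, 9.52 and 5.71 in KO. In R300 it was 30.9, 13.95 and 36.5 CPM in WT and 36.01, 40.5 and 15.6 in KO. Every R300 library lay above every blank, as for 2.57% of all genes, and the libraries without Xist were the lowest R300 library of their genotype. The log2 fold change was 2.04 in WT (SE 0.42, adjusted p = 0.0786) and 2.14 in KO (SE 0.42, adjusted p = 0.0474), and 2.09 over both (SE 0.30, adjusted p = 0.00339). Over both genotypes the call held in all 22 alternatives (adjusted p at most 0.0372), and in KO it held in 7 of 23. Leaving out 1 library at a time, the KO call held only without WT R300 2 or KO R300 3, with adjusted p up to 0.214. Within libraries without Xist Ddit4 was higher by 1.30 log2 units in WT and 1.45 in KO, and within blank 1 against the near-alike pairs by 2.54 and 2.75.

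**Figure D3:**
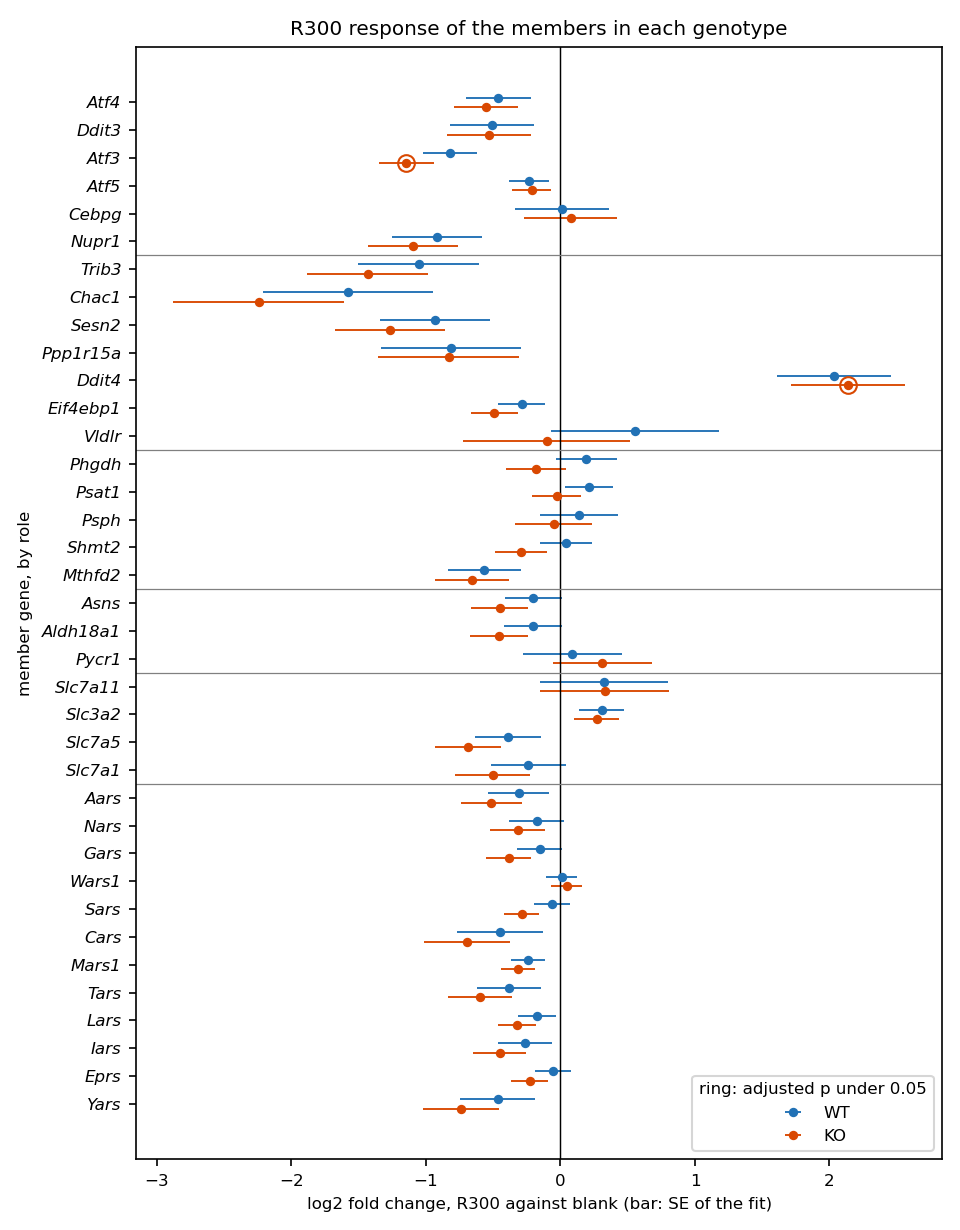
Log2 fold change of R300 against blank for each member in WT (blue) and KO (orange), with the SE of the fit as bars and a ring where the adjusted p was under 0.05. The rings mark Atf3 and Ddit4 in KO, and most other points lie left of 0 with bars that reach or come near it.

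Of the 5 enzymes of serine and one-carbon metabolism, 4 had higher fitted levels with R300 in WT (median log2 0.14) and all 5 had lower ones in KO (median log2 -0.18). None was called by edgeR or DESeq2 in either genotype, and 0 in WT and 1 in KO had an unadjusted p under 0.05. The difference of the responses was negative for all 5 (median log2 -0.24), with 0 called by edgeR or DESeq2 and 0 at an unadjusted p under 0.05. Without both blank libraries numbered 2, the medians with R300 were 0.06 in WT and -0.04 in KO, with 2 and 4 of the 5 lower. Phgdh, Psat1 and Psph, which make serine, had fitted folds with R300 between 0.882 and 1.158 in the 2 genotypes. Mthfd2, a mitochondrial folate enzyme, was the one with the lowest p: 72.8, 110 and 72.8 CPM in WT blank, 55.0, 68.1 and 49.9 in WT R300, 82.8, 155 and 69.4 in KO blank, and 62.0, 62.9 and 69.7 in KO R300. WT groups of Mthfd2 did not overlap, and in KO the highest R300 library exceeded the lowest blank. Its log2 fold change over both genotypes was -0.61 (SE 0.19, adjusted p = 0.128).

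Asns, the asparagine synthetase and a classical ATF4 target, was 67.0, 68.2 and 48.8 CPM in WT blank, 57.8, 46.7 and 55.4 in WT R300, 73.5, 104 and 52.7 in KO blank, and 55.4, 59.3 and 53.5 in KO R300. R300 libraries lay within the blank range, apart from WT R300 2. The log2 fold change was -0.33 (SE 0.15, adjusted p = 0.329), with -0.20 in WT and -0.45 in KO. Aldh18a1 and Pycr1, which make proline, had log2 fold changes of -0.33 and 0.20, and neither passed.

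The transporters split by direction. Slc7a11, the cystine importer, and Slc3a2, the heavy chain it shares with other carriers, were higher in R300 than in blank of like libraries, whereas Slc7a5, the leucine importer that uses the same heavy chain, was lower. Slc7a11 was 351, 789 and 316 CPM in WT blank, 715, 426 and 681 in WT R300, 456, 991 and 307 in KO blank, and 915, 862 and 427 in KO R300. Over all 12 libraries its log2 fold change was 0.33 (SE 0.34) and did not pass, and blank 2 was the highest library in both genotypes. Slc3a2 was 440, 592 and 564 CPM in WT blank, 670, 682 and 622 in WT R300, 414, 676 and 530 in KO blank, and 689, 616 and 648 in KO R300. WT groups of Slc3a2 did not overlap, and its log2 fold change of 0.29 (SE 0.12, adjusted p = 0.267) did not pass. Slc7a1, the arginine and lysine importer, had a log2 fold change of -0.37 (SE 0.20, adjusted p = 0.414). Slc7a5 was 77.0 to 123 CPM in WT blank, 70.0 to 77.1 in WT R300, 88.5 to 187 in KO blank and 74.9 to 84.5 in KO R300 (log2 -0.54, SE 0.17, adjusted p = 0.139).

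Of the 12 tRNA synthetases, which charge tRNAs with their amino acids, 11 had lower fitted levels with R300 in each genotype, and none passed over all genes. Folds lay between 0.724 and 1.01 in WT, and between 0.599 and 1.03 in KO, lowest for Yars, the tyrosyl enzyme, and highest for Wars1, the tryptophanyl enzyme, in both. At an unadjusted p under 0.05 there were 0 in WT and 7 in KO, where 3.74% and 3.93% of all genes were lower. Yars was 52.2, 83.5 and 63.3 CPM in WT blank, 42.6, 60.9 and 40.6 in WT R300, 61.4, 113 and 65.5 in KO blank, and 38.8, 42.7 and 62.3 in KO R300. The R300 libraries without Xist stood among the blanks. Within libraries without Xist, 6 of 12 synthetases were lower in WT (median log2 -0.00) and 5 of 12 in KO (median log2 0.01). Within blank 1 against the near-alike pairs all 12 were lower in both genotypes (median log2 -0.15 and -0.29), a difference between the sets of libraries that was not tested. The 11 cytosolic synthetases that are not members had a median log2 fold change of -0.05 over both genotypes and the 17 mitochondrial ones of -0.01, with 0 called in each list, and 3 and 1 at an unadjusted p under 0.05. Aars shares 14.3% of its exonic bases with Exosc6 on the same strand.

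**Figure D4:**
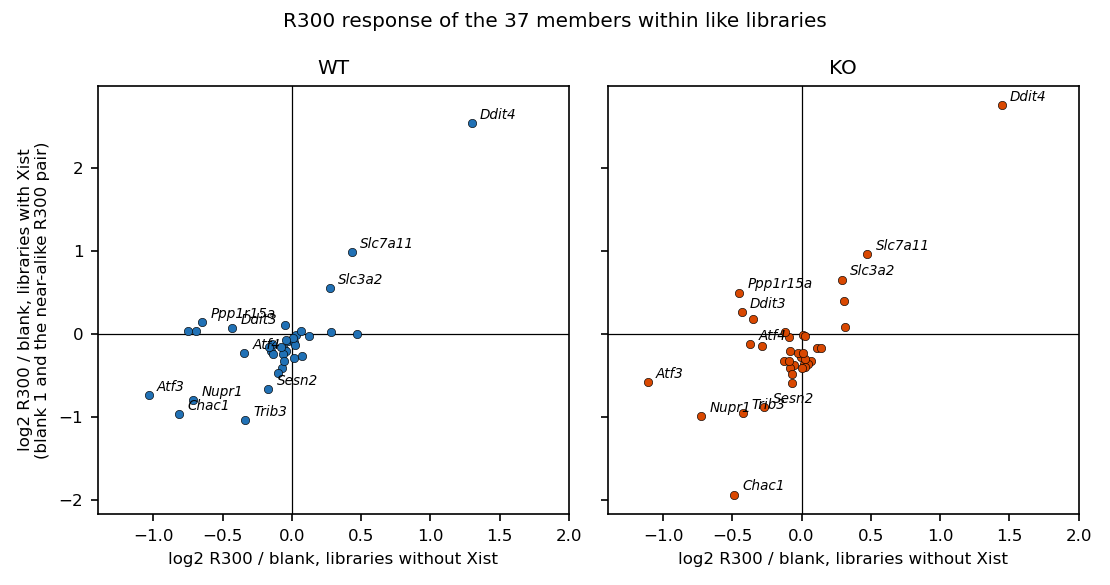
Log2 ratio of R300 to blank for the 37 members within the libraries without Xist (horizontal, 1 library a group) and with Xist (vertical, blank 1 against the mean of the near-alike R300 pair), WT left and KO right, with no error bars since most points rest on single libraries. Ddit4, Slc7a11 and Slc3a2 are higher on both axes, Atf3, Nupr1, Chac1, Trib3 and Sesn2 are lower on both, and most other points lie near 0 on the horizontal axis.

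The 2 sets of like libraries in the 2 genotypes gave 4 directions for each gene. Lower in all 4 were 14 members (Atf4, Atf3, Atf5, Cebpg, Nupr1, Trib3, Chac1, Sesn2, Eif4ebp1, Slc7a5, Aars, Gars, Tars and Yars), as were 18.6% of all genes. Higher in all 4 were Ddit4, Psat1, Slc7a11 and Slc3a2, as were 19.2% of all genes. The members' median was -0.06 in WT and -0.06 in KO without Xist, and -0.14 and -0.23 with it.

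The program was highest in the blank libraries numbered 2. KO blank 2 was the highest of all 12 libraries for 28 members and the highest of its group for 33, and WT blank 2 the highest of its group for 25. In KO the ratio of blank 2 to the mean of blank 1 and 3 had a median of 1.57 over the members and exceeded 1.5 for 22, against a median of 0.987 over all genes. In WT the median was 1.22, with 11 above 1.5, against 0.977 over all genes. B cell markers were also highest there, at 103 CPM in WT blank 2 (21.4 and 22.8 CPM in blank 1 and 3) and 87.7 CPM in KO blank 2 (46.8 and 36.3 CPM). Neutrophil markers were 57.4 CPM in WT blank 2 and 62.7 CPM in KO blank 2, against 8.26 to 18.3 CPM in the other blanks. The part of these cells in the members' levels was not tested. Neither blank 2 has an R300 library of the same kind. Without both, the members' median over both genotypes was -0.18 in place of -0.33, and Atf3 and Sesn2 were called lower and Ddit4 higher, where 3.56% of all genes were called.

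With both blank 2 libraries left out and a term for the libraries without Xist, a setting chosen after the data had been seen, 15 members passed over both genotypes. Lower were Atf4, Atf3, Atf5, Cebpg, Nupr1, Trib3, Chac1, Sesn2, Eif4ebp1, Slc7a5, Tars and Yars, and higher were Ddit4, Slc7a11 and Slc3a2. All genes called in that fit made up 15.1%. Atf4 was at 0.838 of blank (log2 -0.25, SE 0.05, adjusted p = 0.00747), Slc7a11 at 1.68-fold (log2 0.75, SE 0.12, adjusted p = 0.00637) and Slc3a2 at 1.38-fold (log2 0.47, SE 0.07, adjusted p = 0.00210). The fit has 10 libraries and 5 residual degrees of freedom, 2 of which are the differences within the near-alike pairs, so its SEs may be too small. In the main fit of all 12 libraries Cebpg was not lower but at 1.03-fold over both genotypes, so its direction turned between the fits.

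In each genotype alone few members passed. In WT none was called, where 0.623% of all genes were (edgeR), and 26 members were lower (median log2 -0.23, against -0.00 over all genes). DESeq2 called 2, Atf3 lower and Ddit4 higher, where it called 2.19% of all genes. edgeR called Ddit4 without WT R300 2 or KO R300 3, and Atf3 without KO blank 1 or 2. At an unadjusted p under 0.05 there were 5 lower, where 3.74% of all genes were, and 1 higher. Without overlap between groups, 7 were lower (6.09% of all genes) and 2 higher (6.74%). In KO, Atf3 fell and Ddit4 rose by edgeR, where 0.834% of all genes were called, 0.139% lower and 0.695% higher. DESeq2 called these 2 and also Chac1 lower, where it called 2.67% of all genes. In KO 31 members were lower by edgeR (median log2 -0.45). At an unadjusted p under 0.05 there were 16 lower, where 3.93% of all genes were, and 1 higher. Without overlap between groups, 8 were lower (5.68% of all genes) and 1 higher (6.64%). Without KO blank 2 the KO median was -0.18, and neither Atf3 nor Ddit4 was called by edgeR.

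Between genotypes no member passed. In blank, 35 of 37 members were higher in KO than in WT (median log2 0.17), 0 were called by edgeR or DESeq2, and 0 had an unadjusted p under 0.05, where 0% and 1.09% of all genes did. Lowest in p were Gars (log2 0.28, SE 0.17), Slc7a5 (0.41, SE 0.25), Shmt2 (0.31, SE 0.19), Asns (0.32, SE 0.21) and Iars (0.30, SE 0.20), with adjusted p = 1.00 each. Gars, the glycyl enzyme, was 140, 166 and 128 CPM in WT blank and 155, 230 and 142 in KO blank. Shmt2, which passes the serine carbon to folate in mitochondria, was 50.6, 43.4 and 33.0 CPM in WT blank and 50.6, 63.2 and 43.7 in KO blank. Iars, the isoleucyl enzyme, was 97.3, 123 and 99.8 CPM in WT blank and 109, 169 and 114 in KO blank. For Gars, Shmt2, Iars, Asns and Slc7a5 the groups overlapped, and the highest library was KO blank 2. Between libraries of the same number, KO was above WT in all 3 pairs for Gars, Iars, Asns and Slc7a5 and in 2 of 3 for Shmt2. Pycr1 was the 1 member whose blank groups did not overlap, lower in KO, as in 1.96% of all genes. It rested on 31 to 44 counts per library in WT blank and 32 to 49 in KO blank. Its lowest WT blank library (1.146 CPM) was barely above its highest KO blank library (1.132 CPM). Without KO blank 2 alone the members' median was -0.07. With both blank libraries numbered 2 left out, which keeps the numbers paired, it was 0.04 and 25 of 37 members were higher in KO.

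In R300, 20 members were higher in KO and 17 lower (median log2 0.01), again with 0 called by edgeR or DESeq2 and 0 with an unadjusted p under 0.05 (0% and 1.96% of all genes). Atf3 was lower in KO in every library (log2 -0.33, SE 0.20, adjusted p = 1.00), as in 3.87% of all genes. Wars1 was 85.5, 72.7 and 79.1 CPM in WT R300 and 91.0, 91.0 and 75.7 in KO R300 (log2 0.12, SE 0.12). Vldlr (log2 -0.62, SE 0.62), Sars, the seryl enzyme (-0.11, SE 0.13), and Phgdh, the first enzyme of serine synthesis (-0.19, SE 0.22), were next in p. Vldlr was 8.66, 1.97 and 7.90 CPM in WT R300 and 2.90, 5.81 and 3.37 in KO R300. Sars was 99.2, 103 and 98.2 CPM in WT R300 and 80.8, 86.2 and 111 in KO R300, and Phgdh 44.0, 25.2 and 43.5 against 32.4, 36.2 and 30.4. Groups overlapped for these 4 genes.

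The R300 response was smaller or more negative in KO than in WT for 31 members, with a median log2 difference of -0.20, and none was called or had an unadjusted p under 0.05 (0% and 0.574% of all genes; DESeq2 called 0). Lowest in p were Shmt2 (log2 -0.33, SE 0.27), Sars (-0.22, SE 0.19), Phgdh (-0.37, SE 0.32), Atf3 (-0.32, SE 0.28) and Gars (-0.23, SE 0.24). For Ddit4 the response in KO was 1.08-fold that in WT, with a 95% interval on the log2 scale from -1.17 to 1.38. This comparison uses the same KO blank libraries as the R300 comparison in KO. Without KO blank 2 the members' median difference was 0.06, and with both blank libraries numbered 2 left out it was -0.06 (24 of 37 lower). Over both treatments, 30 members were higher in KO (median log2 0.10) and 0 were called, where 0.00604% of all genes were, with 0 at an unadjusted p under 0.05 (2.8% of all genes); DESeq2 called 0 members. Slc7a5 (log2 0.26, SE 0.17), Iars (0.20, SE 0.14), Gars (0.16, SE 0.12), Asns (0.20, SE 0.15) and Wars1 (0.10, SE 0.08) were lowest in p. The 1 gene called was the macrophage marker Lyz2, lower in KO, at 0.541 of WT (log2 -0.89, adjusted p = 0.00508). Lyz2 makes up most of the summed macrophage markers, and none of the other 7 was called. Adgre1 was at 0.985 and Itgam at 1.41 of WT. Mean Cd68 was 1146 CPM in WT blank and 1214 in WT R300, against 931 in KO blank and 874 in KO R300. In blank, 7 of the 8 markers, Lyz2 among them, were lower in KO (median log2 -0.09) and 1 was higher. The part of Lyz2 in the members' values was not tested.

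Further genes of the pathway were read from lists, beside the 2.43% of all genes called higher and 1.21% called lower over both genotypes. Of 16 tested genes for eIF2α kinases and the eIF2 cycle, 1 rose with R300 over both genotypes: Impact, an inhibitor of the amino acid sensor GCN2, at 1.56-fold (log2 0.64, SE 0.14, adjusted p = 0.0315). Impact was 61.5 to 95.3 CPM in blank and 107 to 153 in R300, without overlap, as for 2.57% of all genes in this direction. Eif2ak3, which encodes PERK, was next in p (log2 -0.21, SE 0.09, adjusted p = 0.277).

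Of 25 further ATF4 targets tested, 2 rose and 2 fell over both genotypes (median log2 0.04), where 2.43% of all genes rose and 1.21% fell. Got1, the cytosolic aspartate aminotransferase, rose 3.46-fold (log2 1.79, SE 0.11, adjusted p = 8.11e-06), from 42.5 to 56.1 CPM in blank to 145 to 201 CPM in R300. Vegfa, the angiogenic factor, rose 10.1-fold (log2 3.33, SE 0.23, adjusted p = 3.22e-05). Pck2, the mitochondrial enzyme that makes phosphoenolpyruvate, fell to 0.629 (log2 -0.67, SE 0.15, adjusted p = 0.0322), and Bbc3 (PUMA), a death gene, to 0.673 (log2 -0.57, SE 0.13, adjusted p = 0.0332). Got1 and Vegfa were also called in each genotype alone, where 0.623% of all genes were called in WT and 0.834% in KO.

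Genes of stress pathways beside ATF4 and markers of other cells were read in the same way, beside the 2.43% of all genes that rose over both genotypes. Of 15 genes of the XBP1 and ATF6 arms, 10 were higher (median log2 0.14) and 1 rose, Ern1 (log2 0.67, SE 0.13, adjusted p = 0.0157). Of 8 heat shock genes 2 rose, the chaperone genes Hsph1 at 1.63-fold (adjusted p = 0.000870) and Hspa8 at 1.39-fold (adjusted p = 0.0161). The summed level of these 8 was 1204 to 1359 CPM in blank and 1423 to 1772 CPM in R300. The 8 markers of mast cells and eosinophils summed to 11.2 to 18.5 CPM in WT blank and 28.7 to 34.2 in WT R300. In KO they summed to 17.9 to 30.6 CPM in blank and 32.3 to 52.7 in R300. The sums did not overlap in either genotype. Single genes without overlap in this direction made up 6.74% of all genes in WT and 6.64% in KO. The 6 of these markers that passed the filter on low counts were all higher over both genotypes, and 3 rose. Mesothelial and fibroblast markers were higher in 6 of 6 (median log2 0.84), with 0 called by edgeR and 0 at an unadjusted p under 0.05, and their sums overlapped between blank (84.2 to 408 CPM) and R300 (112 to 902 CPM). The part of these cells in the members' values was not tested.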

How the data were processed

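Bulk poly(A) RNA-seq of 12 libraries, 3 in each of 4 groups named by genotype and treatment in the labels, was deposited by the authors as raw counts per gene. Per the submitters' processing notes, the tools were FastQC 0.12.1, fastp 0.23.4, HISAT2, featureCounts 2.0.3 and DESeq2 1.42.0, with mm10; annotation and strand setting are not given in the sources used here. Rows without a symbol (102 of 35050, 0.0232% to 0.0328% of counts) were left out.

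Genes were filtered with filterByExpr over the 4 groups (16546 left), scaled by TMM and tested on all 12 libraries with edgeR 4.0.16 (quasi-likelihood, robust; limma 3.58.1, R 4.3.3), with Benjamini-Hochberg adjustment over all tested genes and a threshold of 0.05. Tests were two-sided. A fold change is the fitted one, and log2 CPM used a prior count of 2. The method was tested on simulated data. These were drawn as independent libraries, without near-alike pairs or sets by Xist, so they do not bear on false calls from either. The common biological coefficient of variation was 0.267. An exact permutation test of 3 libraries against 3 cannot go below 0.1 and was not used. Labels call the 3 libraries of a group biological replicates and do not name animals, so p-values measure the spread between these libraries.

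The members, the lists and the tests were chosen with earlier results of these data known. Named with values were Atf4, Ddit3, Atf3, Chac1, Trib3, Asns and Ddit4 in the R300 comparisons, the 5 members lowest in p and every member called in each comparison, and, of other lists, genes called or lowest in p; other members were named after their values had been seen. Per-length levels and overlaps used GENCODE M21 on GRCm38.

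Library numbers were checked as pairs by the correlation of deviations from group means. For KO against WT in blank they were 0.514, 0.535 and 0.558, so the numbers were taken to pair those libraries, from the data and not from the labels. They did not pair the libraries in the other comparisons. Alternatives were DESeq2 1.42.0, other scalings, no filter, only the groups compared, the replicate block, a term for libraries without Xist, only libraries with Xist, near-alike libraries summed and each library left out. Leaving out both blank libraries numbered 2, with and without that term, and counting only the 35 members matched by symbol were added after the data had been seen.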

Additional observations from a re-analysis of the deposited data

How the results depend on the processing

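Directions of the members' medians with R300 held in every alternative. Of the members called over both genotypes (4), DESeq2 gave 7, library totals 8, no filter 2, only the 8 libraries with Xist 7, near-alike libraries summed 2 (Atf3 and Ddit4), and the term for Xist with both blank 2 libraries left out 15; leaving out 1 library gave 2 to 5, with medians of -0.37 to -0.20 and 308 to 852 genes. All genes called were 1222 (DESeq2), 684 (library totals), 554 (no filter), 1492 (term), 1004 (only Xist libraries), 158 (summed) and 2539 (term, no blank 2).

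In WT, members called were 2 under DESeq2, 2 with the term for Xist, 2 with only Xist libraries and 5 with the term and no blank 2, and 0 to 1 without 1 library (median -0.31 to -0.15, 32 to 135 genes). All genes called were 363 (DESeq2), 41 (only the groups compared), 347 (term), 242 (only Xist libraries), 27 (summed) and 775 (term, no blank 2). In KO, members called were 1 with library totals, 1 with no filter, 0 with only the groups compared, 0 summed, 0 without both blank 2 libraries (median -0.18) and 7 with the term and no blank 2 (median -0.19). Leaving out 1 library gave 0 to 2, medians of -0.54 to -0.18 and 45 to 171 genes. All genes called were 442 (DESeq2), 118 (library totals), 129 (no filter) and 43 (only the groups compared). They were 450 (term), 290 (only Xist libraries), 35 (summed), 123 (no blank 2) and 1051 (term, no blank 2).

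For KO against WT in blank, genes called were 4 (DESeq2), 1 (no filter), 1 (term) and 74 (term, no blank 2), and the members' median ran from -0.065 to 0.33 without 1 library. In R300 they were 14 (DESeq2), 1 (no filter), 1 (no blank 2) and 185 (term, no blank 2), with medians of -0.07 to 0.06. Over both treatments they were 50 (DESeq2), 28 (term), 0 (only Xist libraries), 0 (summed), 19 (no blank 2) and 463 (term, no blank 2, with 1 member, Cebpg, higher in KO), and 1 to 10 without 1 library, with medians of -0.02 to 0.16. Without 1 library the median difference of responses ran from -0.31 to 0.063, and under the other alternatives from -0.33 to -0.06. Among the members named by rule in each comparison, signs turned for the difference of responses of Atf3 (0.0043, term, no blank 2) and Gars (0.012, without KO blank 2). The cause of these changes was not tested.

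With the replicate block, members called were 0 in WT (119 genes), 0 in KO (141 genes) and 5 over both genotypes (667 genes: Atf3, Nupr1, Trib3 and Sesn2 lower, Ddit4 higher). In the comparison in which the numbers paired the libraries, KO against WT in blank, the block changed no member's call. The block is shared by all 12 libraries, and the numbers did not pair the libraries in the other comparisons. It thus cannot stand for the pairing of the blank libraries, and no paired fit of these alone was run. Depth bears most on low members: Pycr1 rested on 19 to 63 counts per library and Chac1 on 34 to 746.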
